A study of Mus musculus with 16 samples.

Results

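The SLC25 family of mitochondrial carriers was followed in whole kidneys of mice given cisplatin with or without a precursor of NAD. Its members were taken by name, as every gene whose symbol starts with Slc25a together with Ucp1, Ucp2 and Ucp3, which gave 50 of the 23935 gene symbols listed. The rule uses names and no measured value, but it was set with earlier results of these data known. RNA was sequenced in 16 libraries, 4 in each of 4 groups, all from kidneys of wild-type (WT) mice: PBS, cisplatin, cisplatin with NMN (nicotinamide mononucleotide) and cisplatin with NR (nicotinamide riboside). The platinum compound cisplatin damages DNA, and its use against tumours is limited by harm to the renal tubule. Per the labels, each precursor was given ahead of cisplatin, and kidneys were taken 3 days after cisplatin. The labels used here do not give strain, age or doses. No label says that the libraries of a group came from separate animals, so p-values measure the spread between these libraries, which may be technical.

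Carriers of this family sit in the inner mitochondrial membrane and pass metabolites, nucleotides, cofactors and ions between the cytosol and the matrix, and a few members work in the outer membrane or in peroxisomes. The proximal tubule, which makes up most of the kidney cortex, is rich in mitochondria and lives on oxidative metabolism. NMN and NR are made into NAD in the cytosol, and the matrix receives NAD through Slc25a51.

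Values are TPM, transcript abundances per transcript length scaled to a fixed total, so that levels of different genes can be set side by side. Read depth cannot be read from TPM and is unknown here. Changes are differences of log2(TPM + 1), given with the standard error (SE), a scale on which changes at low TPM come out too small. A member was called higher or lower at an adjusted p under 0.05 in a limma model of the 12960 genes that reached 1 TPM in 4 or more libraries. Of the 50 members, 44 passed this filter. The other 6 were Slc25a2, Slc25a18, Slc25a31, Slc25a41, Slc25a43 and Slc25a54. In bulk tissue, fewer cells of a type and less RNA per cell cannot be told apart.

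With PBS, 3 carriers held 58.6% of its summed TPM: Slc25a5, an ADP/ATP carrier that exports ATP made in the matrix, Slc25a3, the phosphate carrier that feeds ATP synthase, and Slc25a39, a glutathione carrier. Their mean levels with PBS were 897 ± 91.4, 664 ± 56.4 and 525 ± 47.1 TPM (SD, n = 4 here and below). Next came Slc25a10 with 294 ± 23.00, Slc25a4 with 153 ± 19.5 and Slc25a11 with 121 ± 17.1 TPM. The neighbouring levels of Slc25a3 and Slc25a39, and of Slc25a4 and Slc25a11, overlapped in range between libraries. Within every PBS library Slc25a3 lay above Slc25a39 and Slc25a4 above Slc25a11. Slc25a54 was listed at 0 in all 16 libraries. The summed TPM of all 50 members was 3560 ± 338 with PBS, 2793 ± 231 with cisplatin alone, 3423 ± 162 with NMN and 3314 ± 114 with NR. Every cisplatin library, at 2470 to 3017 TPM, lay below every library of the other groups, the lowest of which held 3076 TPM. This sum mostly follows the abundant members. With cisplatin the means were 443 TPM for Slc25a5, 597 for Slc25a3, 352 for Slc25a39 and 117.5 for Slc25a10. It says little of the less abundant members, which moved both ways.

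**Figure D1:**
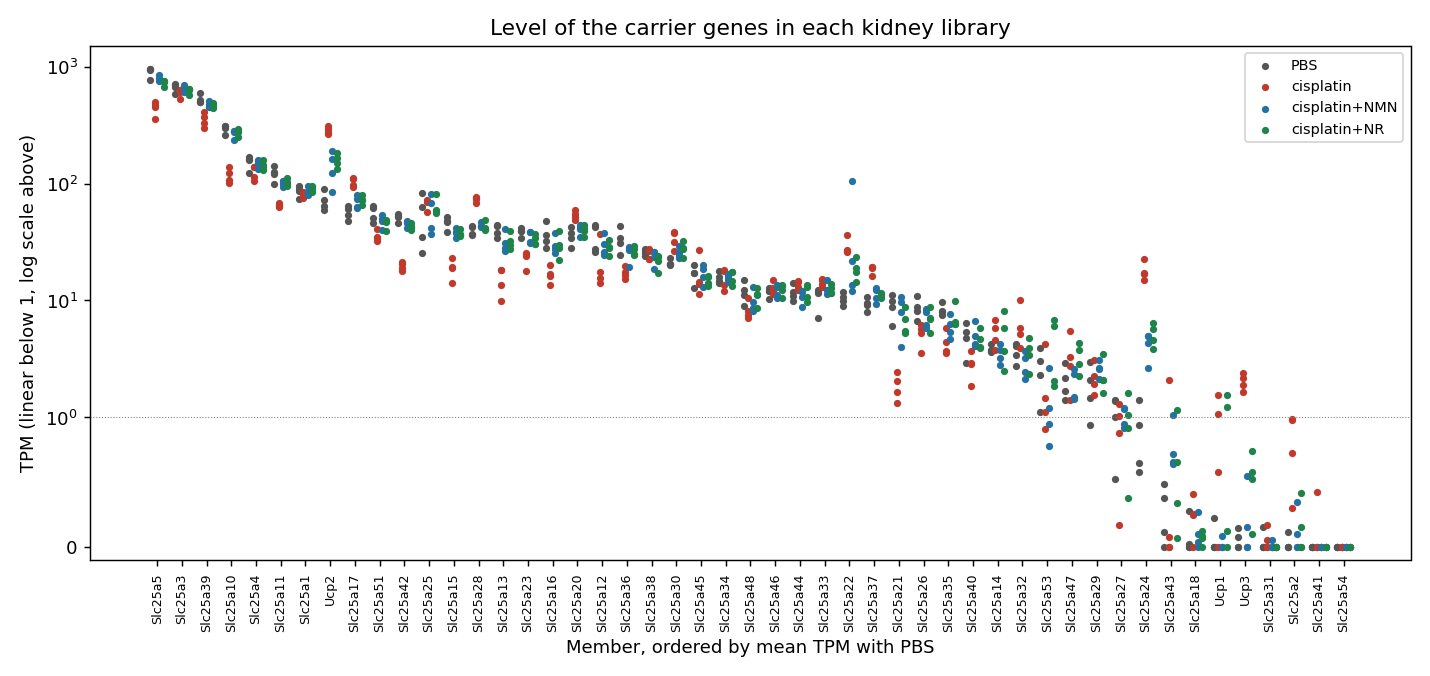
TPM of the carrier genes, all members but 1, in each of the 16 libraries, on an axis that is logarithmic above 1 TPM and linear below it, ordered by the mean with PBS and coloured by group. The cisplatin points sit below the others for Slc25a5, Slc25a10 and Slc25a42 and above them for Ucp2, Slc25a24 and Ucp3.

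TPM moves every gene when abundant transcripts change. The 13 mRNAs encoded in mitochondrial DNA held 15.6 to 17.6% of the listed TPM in the cisplatin libraries and 22.1 to 34% in the others. The median gene moved by 0.27 on the log2 scale between PBS and cisplatin, by -0.23 from cisplatin to NMN and by -0.20 from cisplatin to NR. Median-of-ratios scaling, which sets that median near 0, is therefore given beside the counts. Markers of other cells also moved with cisplatin: the summed TPM of 15 proximal tubule genes was 56096 to 62664 with PBS, 4808 to 7980 with cisplatin alone, 43489 to 51450 with NMN and 37801 to 44014 with NR. All 15 were called lower with cisplatin. Sums over 9 distal nephron genes were 1201 to 2062 with PBS and 718 to 1200 with cisplatin, where 7 were called lower, Aqp2 was called higher and Umod was not called. Over 5 podocyte genes, all called lower, they were 76.5 to 155 and 17.7 to 76.6. The part of these shifts in the members' changes was not tested.

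More carriers were lower than higher with cisplatin. Of the 44 members tested, 30 were called in cisplatin against PBS, beside 59.4% of all genes tested. By direction, 19 members were lower, beside 18.6% of all genes, and 11 were higher, beside 40.7% of all genes. The median change was -0.13 for the members and 0.27 for all genes. With median-of-ratios scaling 32 members were called, beside 57.8% of all genes: 23 were lower, beside 28.6%, and 9 were higher, beside 29.2%. The libraries of the groups did not overlap for 25 members, beside 50.8% of all genes: 10 lay above PBS, beside 35.3%, and 15 below, beside 15.6%. Without PBS 1, cisplatin 1 and cisplatin 3, left out after the data had been seen, 25 members were called, beside 49.3% of all genes: 17 were lower, beside 17.2%, and 8 were higher, beside 32.1%. The 11 higher members include Ucp3, which passed the filter only through the cisplatin libraries.

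**Figure D2:**
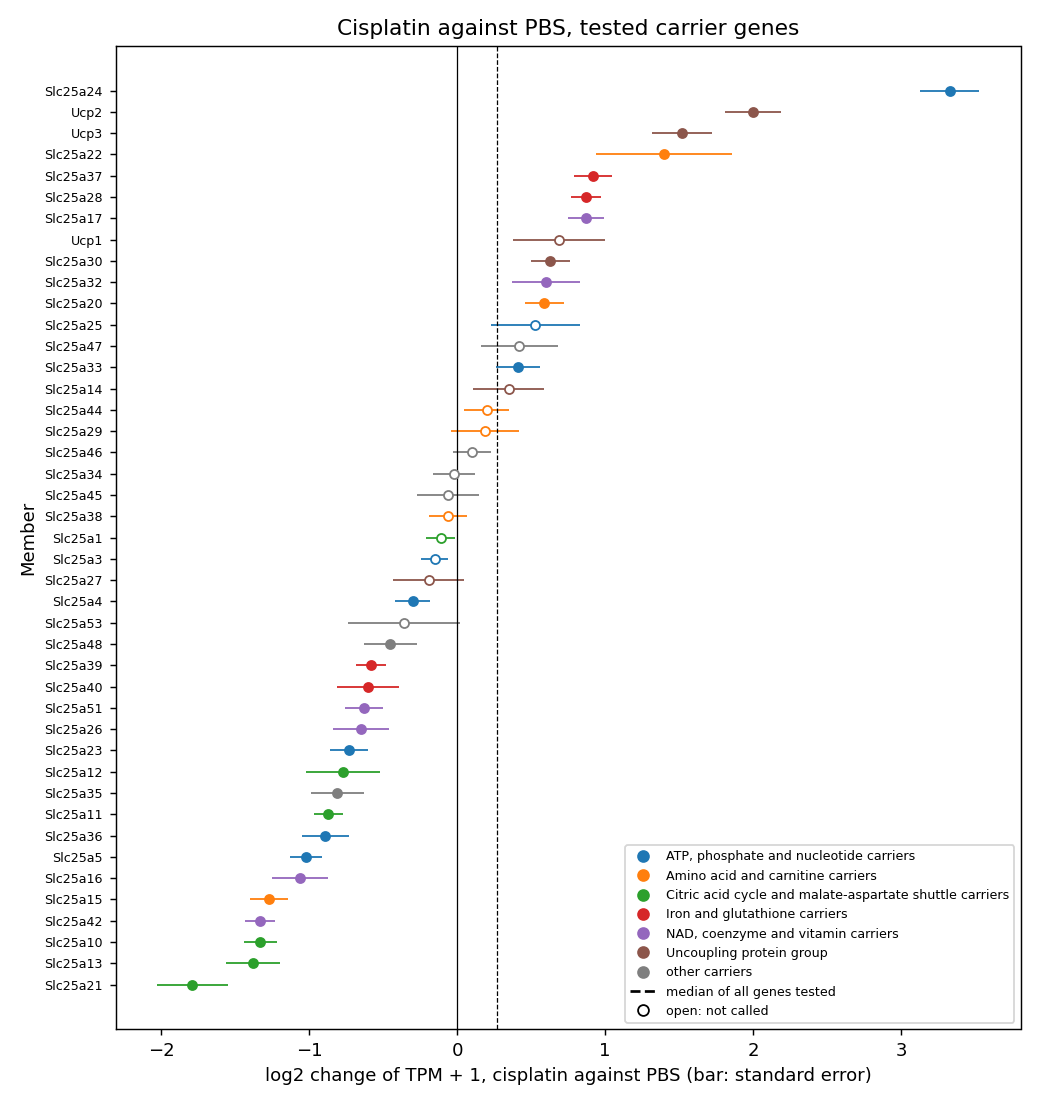
Change of the tested carriers, all but 1, from PBS to cisplatin as a difference of log2(TPM + 1), with its standard error, coloured by the role of the carrier. Filled points were called, and the dashed line marks the median of all genes tested, 0.27. Slc25a24 lies farthest to the right at 3.33 and Slc25a21 farthest to the left at -1.79.

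Carriers also differed between cisplatin alone and cisplatin with a precursor. In NMN against cisplatin 23 members were called, 14 higher and 9 lower, beside 49.1% of all genes, of which 15.1% were higher and 34% lower. In NR against cisplatin 23 members were called, 15 higher and 8 lower, beside 46.6% of all genes, of which 14.4% were higher and 32.2% lower. The members' median was 0.14 with NMN and 0.10 with NR, where that of all genes was -0.23 and -0.20. Median-of-ratios scaling gave 20 higher and 7 lower with NMN, beside 22.4% and 23.3% of all genes, and 22 higher and 6 lower with NR, beside 21.5% and 22.1%. With NMN the libraries did not overlap with cisplatin for 21 members (44.3% of all genes), 12 above (13.4%) and 9 below (30.9%). With NR this held for 21 members (41.8% of all genes), 13 above (12.7%) and 8 below (29.1%). In both comparisons the lower members, and those that lay below cisplatin without overlap, include Ucp3. It passed the filter only through the cisplatin libraries, so that its lower values were built in. Both comparisons use the same cisplatin libraries as the one against PBS. Without NR 3 and NR 4, also an unplanned choice, 18 members were called in NR against cisplatin, beside 36.9% of all genes. Of these members 11 were higher, beside 10.8%, and 7 lower, beside 26.1%. Slc25a32, Slc25a35, Slc25a40 and Slc25a51 were among those that lost their call.

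Against PBS, 2 members were called with NMN, beside 6% of all genes, and 2 with NR, beside 10%. In both cases these were Slc25a24 and Ucp2, and both were higher, beside 5.89% of all genes called higher with NMN and 8.79% with NR. No member was called lower, beside 0.116% and 1.21%. Libraries did not overlap with PBS for 2 members with NMN, Slc25a22 and Slc25a24, both above (10.2% of all genes did not overlap, 8.77% above and 1.46% below). With NR they did not overlap for 7 members (14.8%): Slc25a17, Slc25a22, Slc25a24 and Ucp2 above (11.8%) and Slc25a5, Slc25a38 and Slc25a39 below (2.99%). Between NMN and NR, limma called 0 members, beside 0% of all genes, and 1 member, Slc25a53, had an unadjusted p under 0.05 (-1.03 for NMN minus NR). The libraries of NMN and NR did not overlap for 1 member, Slc25a5, with NMN above NR but not called, beside 1.64% of all genes (0.64% higher and 0.995% lower). Median-of-ratios scaling added lower calls against PBS, for Slc25a11, Slc25a15 and Slc25a36 with NMN and for these and Slc25a5, Slc25a42 and Slc25a51 with NR, where 0.741% and 3.75% of all genes were called lower.

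The stretches before the start sites of 5 called carriers are shown because they stand for both directions: Slc25a24, Ucp2 and Slc25a17 were higher with cisplatin, and Slc25a42 and Slc25a13 were lower. They come from RefSeq (GRCm38.p6), run 5′ to 3′ on the strand of the gene and end before the first annotated base of the gene. Capitals mark matches to 9 short motifs searched on both strands.
Slc25a24: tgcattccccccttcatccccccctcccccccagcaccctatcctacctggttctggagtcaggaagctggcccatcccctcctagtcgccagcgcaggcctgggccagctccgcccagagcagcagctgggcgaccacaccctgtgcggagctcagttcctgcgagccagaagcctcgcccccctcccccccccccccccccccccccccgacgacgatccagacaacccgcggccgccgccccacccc
Ucp2: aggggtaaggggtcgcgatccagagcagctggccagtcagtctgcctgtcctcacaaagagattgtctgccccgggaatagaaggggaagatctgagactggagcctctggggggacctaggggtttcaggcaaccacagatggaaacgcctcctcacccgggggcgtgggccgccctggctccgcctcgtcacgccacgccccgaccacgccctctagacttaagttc
Slc25a17: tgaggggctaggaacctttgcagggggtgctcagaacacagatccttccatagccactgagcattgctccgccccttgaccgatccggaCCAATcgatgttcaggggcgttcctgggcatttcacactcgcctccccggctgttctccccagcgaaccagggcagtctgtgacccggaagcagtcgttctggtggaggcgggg
Slc25a42: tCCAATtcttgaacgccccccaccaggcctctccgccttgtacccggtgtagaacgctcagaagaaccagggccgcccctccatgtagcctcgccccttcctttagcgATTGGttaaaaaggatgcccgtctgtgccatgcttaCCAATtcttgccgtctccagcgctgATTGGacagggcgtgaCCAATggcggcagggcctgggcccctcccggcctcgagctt
Slc25a13: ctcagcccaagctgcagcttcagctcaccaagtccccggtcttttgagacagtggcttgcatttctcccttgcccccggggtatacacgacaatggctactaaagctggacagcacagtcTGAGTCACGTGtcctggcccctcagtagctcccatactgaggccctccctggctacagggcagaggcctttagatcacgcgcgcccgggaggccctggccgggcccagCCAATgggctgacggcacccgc
In order, these windows lie at chr3:109122899-109123148, chr7:100493108-100493336, chr15:81360813-81361015, chr8:70212306-70212531 and chr6:6217174-6217423, the first and the second on the plus strand and the others on the minus strand.

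The window of Slc25a42 held 5 matches to the CCAAT box (CCAAT), and that of Slc25a17 held 1. In the window of Slc25a13 an AP-1 site (TGANTCA) overlapped an E-box (CACGTG), and a CCAAT box lay 18 to 22 bases before the start. None of the 9 motifs matched in the windows of Slc25a24 and Ucp2. Over the 250 bases before the start, 39 members with 49 promoters matched the RefSeq table of 32851 promoters, so that some members count more than once. The median GC content was 57.6% in the members' promoters and 52.4% in all. Its part in the shares that follow was not tested. A CCAAT box stood in 42.9% of the members' promoters and 33.8% of all, and an E-box in 16.3% and 6.02%. The AP-1 site stood in 4.08% and 6.75%, the cAMP response element (TGACGTCA) in 4.08% and 1.55%, and the oestrogen-related receptor element (AAGGTCA) in 2.04% and 4.08%. No member's promoter matched the ATF4 composite site (TGATGNAAT), the NRF1 site, the DR1 site of PPAR and HNF4A or the HNF1 site, which stood in 0.816%, 0.782%, 0.0335% and 0.00913% of all promoters. A DR1 site preceded by A also holds the AAGGTCA element. A match is a description of letters, not of binding.

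Carriers of ATP, phosphate and nucleotides moved both ways with cisplatin: of 8 tested members of 11, 4 were lower and 2 were higher, beside 18.6% and 40.7% of all genes, with a median of -0.23 beside 0.27 for all genes. Slc25a5, the most abundant member, measured 760.0, 932, 951 and 944 TPM with PBS, 472, 493, 354 and 453 with cisplatin, 754, 779, 794 and 839.6 with NMN, and 672, 750.3, 750.4 and 731 with NR. It fell with cisplatin (-1.02 ± 0.11, limma adjusted p = 1.72e-07), was higher than cisplatin with NMN (0.85 ± 0.11, limma adjusted p = 3.91e-06) and with NR (0.72 ± 0.11, limma adjusted p = 2.7e-05), and the cisplatin libraries overlapped with none of the others. PBS 1 stood apart below the other PBS libraries. Slc25a4, the ADP/ATP carrier of heart and muscle, measured 124, 159.8, 167 and 160.5 TPM with PBS, 138, 139, 105 and 114 with cisplatin, 134, 151, 157 and 157 with NMN, and 130.3, 139, 160.1 and 145 with NR. It fell with cisplatin (-0.30 ± 0.12, limma adjusted p = 0.0338) with groups that overlapped, a call lost in 7 alternative fits, among them those without cisplatin 3 (adjusted p = 0.117) or without PBS 3 (0.0929). Slc25a3, which the phosphate supply of ATP synthase depends on, measured 583, 700.0, 669 and 704 TPM with PBS, 633, 622, 527 and 604 with cisplatin, 607, 692, 678 and 677 with NMN, and 573, 629, 646 and 639 with NR. It was not called with cisplatin (-0.15 ± 0.09, limma adjusted p = 0.156), and it was called lower with median-of-ratios scaling (-0.47, limma adjusted p = 3.46e-05).

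Slc25a24 rose most of all members. Together with Slc25a23 and Slc25a25 it belongs to the calcium-regulated carriers that exchange ATP-Mg for phosphate and so set the size of the adenine nucleotide pool of the matrix. Its values were 0.65, 1.41, 0.94 and 0.58 TPM with PBS, 22.8, 15.04, 16.7 and 17.2 with cisplatin, 4.99, 4.31, 5.01 and 2.66 with NMN, and 6.45, 3.88, 4.56 and 5.7 with NR. No PBS library reached 2 TPM and no cisplatin library fell below 15.04 TPM. The rise with cisplatin (3.33 ± 0.20, limma adjusted p = 1.42e-10) was smaller in the libraries with NMN (-1.86 ± 0.20, limma adjusted p = 7.11e-07 against cisplatin) and with NR (-1.63 ± 0.20, limma adjusted p = 4.3e-06 against cisplatin). Both stayed above PBS, NMN by 1.46 ± 0.20, limma adjusted p = 9.08e-05 and NR by 1.70 ± 0.20, limma adjusted p = 1.1e-05, with no overlap of the libraries. Slc25a24 lies on chromosome 3 at 109123149 to 109168457 (GRCm38), and its neighbour Slc25a54, 6461 bases away, was listed at 0 throughout.

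Slc25a25 measured 25.3, 62.7, 82.8 and 34.6 TPM with PBS, 69.7, 70.98, 57.00 and 72.1 with cisplatin, 37.2, 67.5, 81.5 and 41.7 with NMN, and 57.8, 80.8, 55.5 and 59.4 with NR. The PBS libraries ranged over more than those of any other group and overlapped with all of them, and the change with cisplatin was not called (0.53 ± 0.30, limma adjusted p = 0.142). Without PBS 3 it was called higher (0.80, limma adjusted p = 0.0211). Slc25a23 fell from 38.6 ± 3.11 to 23.1 ± 3.47 TPM (-0.73 ± 0.13, limma adjusted p = 8.48e-05). Of the carriers of pyrimidine nucleotides, Slc25a36 measured 24.6, 30.8, 43.4 and 34.4 TPM with PBS, 19.6, 16.6, 17.4 and 15.3 with cisplatin, 19.3, 28.6, 27.1 and 27.9 with NMN, and 25.01, 27.4, 24.6 and 29.4 with NR. It fell with cisplatin (-0.89 ± 0.16, limma adjusted p = 0.000104) with no overlap. Its relative Slc25a33 went the other way, from 10.7 ± 2.4 to 14.2 ± 0.971 TPM (0.41 ± 0.15, limma adjusted p = 0.028). That call was lost in several alternative fits, among them median-of-ratios scaling (0.11, adjusted p = 0.429) and the fit without PBS 1 (0.24, adjusted p = 0.111). Slc25a33 shares 14.9% of its exonic bases with the antisense gene Gm13068, and the strand setting of the counting is not given.

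Carriers of NAD, coenzymes and vitamins were all called with cisplatin: 5 of the 7 were lower and 2 higher, beside 18.6% and 40.7% of all genes, with a median of -0.65 beside 0.27. Slc25a51, which brings NAD into the matrix, measured 46.3, 50.7, 61.2 and 63.7 TPM with PBS, 40.98, 34.6, 31.9 and 34.1 with cisplatin, 40.4, 47.4, 49.6 and 53.8 with NMN, and 49.02, 39.3, 47.4 and 47.00 with NR. It fell with cisplatin (-0.63 ± 0.13, limma adjusted p = 0.000377), and every cisplatin library lay below every PBS library. It was higher than cisplatin with NMN (0.42 ± 0.13, limma adjusted p = 0.011) and with NR (0.36 ± 0.13, limma adjusted p = 0.0279), in both cases with groups that overlapped. The call with NR was lost in 6 of the fits that left out 1 library, with adjusted p-values between 0.0564 (without cisplatin 2) and 0.0735 (without cisplatin 3). Against PBS it was not called with NMN (-0.21 ± 0.13, limma adjusted p = 0.473) or NR (-0.27 ± 0.13, limma adjusted p = 0.229).

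Slc25a17, the peroxisomal carrier of coenzyme A, NAD and FAD, moved the other way and measured 47.4, 54.3, 60.3 and 63.99 TPM with PBS, 94.2, 110.3, 97.9 and 112 with cisplatin, 63.6, 61.8, 79.8 and 74.1 with NMN, and 72.3, 65.3, 72.8 and 79.00 with NR. It rose with cisplatin (0.87 ± 0.12, limma adjusted p = 4.18e-06), and no cisplatin library overlapped with any other group. It was lower than cisplatin with NMN (-0.57 ± 0.12, limma adjusted p = 0.000581) and NR (-0.51 ± 0.12, limma adjusted p = 0.00153). The NR libraries all lay above the PBS libraries, a difference that was not called (0.36 ± 0.12, limma adjusted p = 0.0615) and was called with a replicate block (adjusted p = 0.0276). Slc25a17 spans 81318911 to 81360812 on chromosome 15.

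Slc25a42, the carrier of coenzyme A into the matrix, measured 52.6, 45.7, 52.2 and 55.02 TPM with PBS, 19.1, 20.7, 17.9 and 21.4 with cisplatin, 45.8, 41.9, 48.05 and 47.1 with NMN, and 42.1, 39.7, 42.1 and 45.98 with NR. The cisplatin libraries held less than any other library (-1.33 ± 0.10, limma adjusted p = 2.64e-09 against PBS), and NMN (1.17 ± 0.10, limma adjusted p = 5.17e-08) and NR (1.07 ± 0.10, limma adjusted p = 2e-07) were higher than cisplatin. Slc25a16, a relative linked to the coenzyme A supply, measured 32.1, 28.4, 36.5 and 48.1 TPM with PBS, 16.1, 16.8, 13.4 and 20.3 with cisplatin, 27.3, 25.6, 29.2 and 37.9 with NMN, and 28.4, 22.2, 29.7 and 39.6 with NR. It fell likewise (-1.06 ± 0.19, limma adjusted p = 8.19e-05), with no overlap. Slc25a26, which imports S-adenosylmethionine for methylation in the matrix, fell from 8.64 ± 1.73 to 5.17 ± 1.16 TPM (-0.65 ± 0.19, limma adjusted p = 0.00633). Slc25a32, the carrier of folate and FAD, was called higher (0.60 ± 0.23, limma adjusted p = 0.0341) with cisplatin 1 at 10.1 TPM and the other cisplatin libraries at 3.89 to 5.84. The call was lost in several alternative fits, among them that without cisplatin 1 (0.37, adjusted p = 0.148) and median-of-ratios scaling (0.34, adjusted p = 0.199).

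Carriers of the citric acid cycle and of the malate-aspartate shuttle had the lowest median of all role groups, -1.10 beside 0.27 for all genes, with 5 of 6 lower and none higher with cisplatin, beside 18.6% and 40.7% of all genes. Slc25a10, the dicarboxylate carrier that exchanges malate and succinate for phosphate, measured 261, 296, 312 and 309 TPM with PBS, 100.5, 123, 107 and 139 with cisplatin, 237, 278, 282 and 283 with NMN, and 249.8, 274, 294 and 280.5 with NR. It fell (-1.33 ± 0.11, limma adjusted p = 7.26e-09), and NMN (1.20 ± 0.11, limma adjusted p = 8.93e-08) and NR (1.23 ± 0.11, limma adjusted p = 8.8e-08) were higher than cisplatin. The lowest library outside the cisplatin group, NMN 1, held 237 TPM, above the highest cisplatin library at 139 TPM. Slc25a11, the oxoglutarate-malate carrier of the shuttle, measured 98.6, 120.2, 139.9 and 125 TPM with PBS, 64.98, 68.2, 64.3 and 62.7 with cisplatin, 94.2, 99.9, 105 and 104 with NMN, and 96.1, 99.01, 104 and 112 with NR. It fell (-0.87 ± 0.10, limma adjusted p = 8.21e-07) with no overlap. It shares 8.92% of its exonic bases with Rnf167 on the other strand.

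Slc25a13, the aspartate-glutamate carrier also known as citrin, measured 34.2, 37.5, 44.1 and 42.9 TPM with PBS, 13.7, 18.3, 9.88 and 18.1 with cisplatin, 28.1, 26.3, 31.00 and 40.6 with NMN, and 27.5, 29.9, 32.3 and 39.3 with NR. It fell with cisplatin (-1.38 ± 0.18, limma adjusted p = 3.27e-06) and was higher than cisplatin with NMN (1.04 ± 0.18, limma adjusted p = 0.00012) and NR (1.08 ± 0.18, limma adjusted p = 9.67e-05). All libraries of the other groups lay above the cisplatin libraries. The second aspartate-glutamate carrier, Slc25a12, fell from 35.1 ± 9.62 to 21.1 ± 10.8 TPM (-0.77 ± 0.25, limma adjusted p = 0.0123), but cisplatin 2 held 37.2 TPM, within the PBS range. Without PBS 1, cisplatin 1 and cisplatin 3 the call was lost (-0.52, limma adjusted p = 0.135). Slc25a21, which carries oxodicarboxylates of lysine breakdown, had the largest fall of all members and measured 6.04, 9.93, 8.74 and 11.1 TPM with PBS, 2.03, 2.45, 1.64 and 1.33 with cisplatin, 4.04, 9.64, 8.01 and 10.6 with NMN, and 6.9, 5.5, 5.32 and 8.76 with NR. The change was -1.79 ± 0.24 (limma adjusted p = 5.12e-06). NMN 1 lay below the other NMN libraries but above all cisplatin libraries (1.61 ± 0.24, limma adjusted p = 2.91e-05 for NMN and 1.41 ± 0.24, limma adjusted p = 0.000139 for NR against cisplatin). Slc25a1, the citrate carrier that supplies acetyl groups to the cytosol, measured 73.98, 86.2, 95.3 and 89.1 TPM with PBS, 75.2, 85.3, 80.6 and 76.2 with cisplatin, 94.9, 80.3, 85.4 and 86.8 with NMN, and 84.6, 93.5, 95.8 and 89.3 with NR. Its groups overlapped and it was not called (-0.11 ± 0.10, limma adjusted p = 0.328). Median-of-ratios scaling called it lower (-0.43, limma adjusted p = 0.00176).

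Among carriers of amino acids and carnitine, 6 of 8 were tested, and 2 were higher and 1 lower with cisplatin, near the 40.7% and 18.6% of all genes. Slc25a15, the ornithine carrier of the urea cycle and of ornithine breakdown, measured 38.9, 47.2, 52.1 and 47.9 TPM with PBS, 19.5, 22.9, 14.2 and 18.9 with cisplatin, 34.3, 38.1, 37.7 and 41.4 with NMN, and 37.2, 35.9, 36.6 and 40.6 with NR. It fell (-1.27 ± 0.13, limma adjusted p = 1.78e-07) and was higher than cisplatin with NMN (0.99 ± 0.13, limma adjusted p = 8.03e-06) and NR (0.98 ± 0.13, limma adjusted p = 1.14e-05), with no overlap. Slc25a20, the carnitine-acylcarnitine carrier that fatty acid oxidation requires, measured 28.1, 37.4, 42.1 and 34.4 TPM with PBS, 59.3, 55.03, 48.3 and 51.9 with cisplatin, 41.4, 34.6, 44.4 and 40.9 with NMN, and 43.8, 34.7, 41.8 and 39.2 with NR. It rose with cisplatin (0.59 ± 0.13, limma adjusted p = 0.000629), and every cisplatin library lay above every other library. The lower values with NMN (-0.40 ± 0.13, limma adjusted p = 0.0138) and NR (-0.42 ± 0.13, limma adjusted p = 0.0119) were called on the TPM scale and were -0.16 and -0.20 after median-of-ratios scaling, where neither was called (adjusted p = 0.194 and 0.105).

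Slc25a22, a glutamate carrier, measured 10.7, 11.8, 9.0 and 9.86 TPM with PBS, 26.1, 27.1, 26.3 and 36.5 with cisplatin, 13.7, 104, 21.9 and 11.96 with NMN, and 14.4, 17.4, 23.6 and 18.9 with NR. It was higher with cisplatin than with PBS (1.40 ± 0.46, limma adjusted p = 0.0154), a call lost without PBS 1, cisplatin 1 and cisplatin 3 (1.54, adjusted p = 0.0619). NMN 2 held more than any cisplatin library and stood far above the other NMN libraries. With it the difference of NMN from cisplatin was -0.19 ± 0.46 (limma adjusted p = 0.757), and without it -0.86 (limma adjusted p = 0.00193). The SE of every comparison rests on 1 spread over all groups, NMN 2 included. Every NR library lay below every cisplatin library, a difference that was not called (-0.62 ± 0.46, limma adjusted p = 0.284). With only these 2 groups in the fit it was called (limma adjusted p = 0.00987). The glycine carrier Slc25a38 was at 25.9 ± 1.48 TPM with PBS and 24.8 ± 2.66 with cisplatin and was not called (-0.06 ± 0.13, limma adjusted p = 0.716) other than as lower after scaling by median of ratios (-0.37) or without the mitochondrially encoded genes (-0.28). Slc25a29, a carrier of basic amino acids, and Slc25a44, a carrier of branched-chain amino acids, were not called either, at 0.19 (adjusted p = 0.493) and 0.20 (adjusted p = 0.242).

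**Figure D3:**
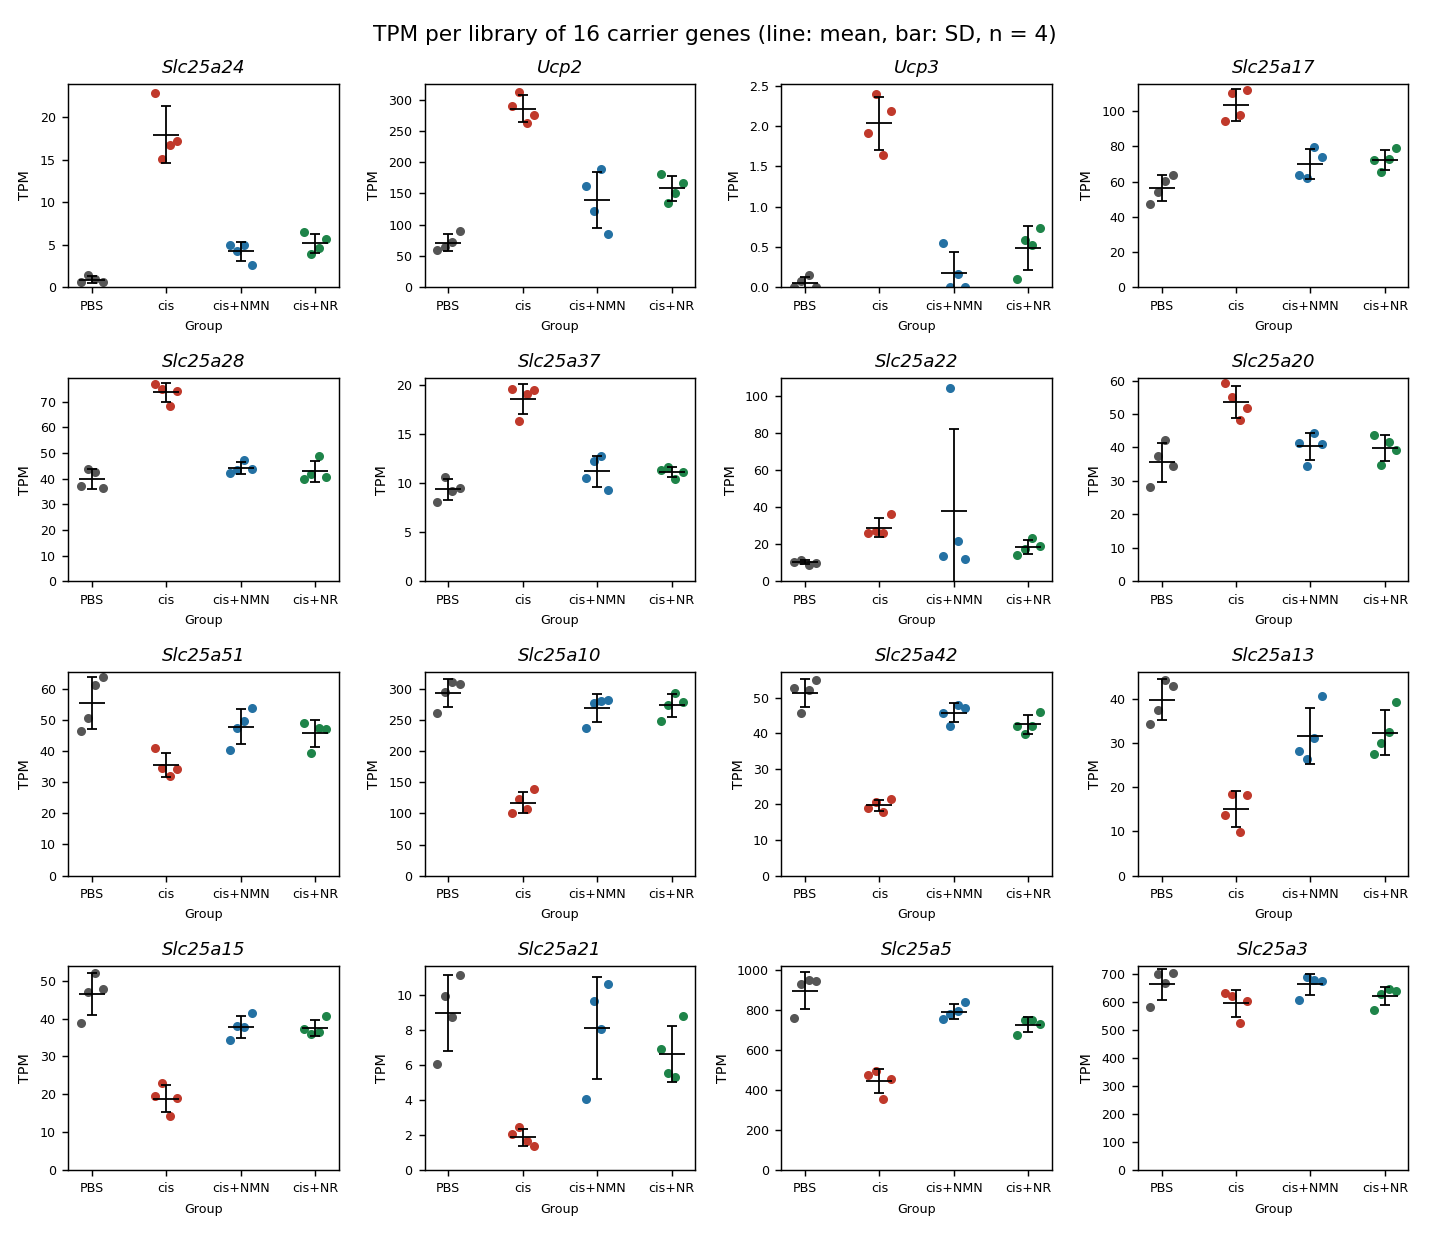
TPM of 16 carriers in every library, with the group mean as a line and the SD as a bar (n = 4), on axes that start at 0. The upper 8 panels hold genes that were higher with cisplatin and the lower 8 hold Slc25a3, which was not called, and 7 genes that were lower. NMN 2 lies alone at 104 TPM for Slc25a22, where the SD bar runs below the axis.

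Both iron carriers rose and both glutathione carriers fell with cisplatin, beside 40.7% of all genes called higher and 18.6% called lower. Slc25a37 (mitoferrin 1), which feeds iron to haem synthesis, measured 8.02, 10.7, 9.22 and 9.5 TPM with PBS, 19.5, 16.3, 19.1 and 19.4 with cisplatin, 10.5, 12.3, 12.7 and 9.3 with NMN, and 11.3, 11.7, 10.4 and 11.2 with NR. Slc25a28 (mitoferrin 2), its relative outside the red cell lineage, measured 37.05, 43.7, 42.5 and 36.2 TPM with PBS, 76.9, 74.9, 68.4 and 73.9 with cisplatin, 42.3, 43.4, 47.2 and 43.6 with NMN, and 40.00, 41.8, 48.8 and 40.7 with NR. For both, all cisplatin libraries lay above all other libraries (0.92 ± 0.13, limma adjusted p = 6.02e-06 and 0.87 ± 0.10, limma adjusted p = 6.61e-07). Both were lower than cisplatin with NMN (-0.69 ± 0.13, limma adjusted p = 0.000221 and -0.72 ± 0.10, limma adjusted p = 1.16e-05) and with NR (-0.69 ± 0.13, limma adjusted p = 0.000262 and -0.77 ± 0.10, limma adjusted p = 7.8e-06). The summed TPM of 7 genes of red blood cells and their precursors was 1882 to 3825 with PBS and 8.6 to 34.4 with cisplatin. With NMN it was 1366 to 2886 and with NR 1276 to 2607. The part of these cells in the changes of Slc25a37 and Slc25a28 was not tested.

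Slc25a39 measured 497, 494, 594 and 516 TPM with PBS, 295, 411, 329 and 374 with cisplatin, 448, 448, 481 and 507 with NMN, and 471, 456, 484 and 439 with NR. It fell with cisplatin (-0.58 ± 0.10, limma adjusted p = 8.95e-05) with no overlap. Its relative Slc25a40 was expressed at a far lower level, and fell from 4.88 ± 1.48 to 2.83 ± 0.756 TPM (-0.60 ± 0.21, limma adjusted p = 0.0195) with groups that overlapped. Without PBS 4 (-0.48, adjusted p = 0.0757) or cisplatin 2 (-0.47, adjusted p = 0.0751) this was not called.

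In the uncoupling group, 3 of 6 members were higher with cisplatin, beside 40.7% of all genes, and none was lower. 1 of the 3 is Ucp3, whose call was built in by the filter. Ucp2, which carries aspartate and malate and is known from macrophages and many other cells, measured 58.9, 64.5, 72.7 and 89.6 TPM with PBS, 290.4, 313, 263 and 275 with cisplatin, 162, 122, 189 and 85.4 with NMN, and 181, 134, 151 and 166 with NR. It rose with cisplatin (2.00 ± 0.19, limma adjusted p = 6.25e-08), and every cisplatin library lay above every other library. It was lower than cisplatin with NMN (-1.09 ± 0.19, limma adjusted p = 0.000134) and NR (-0.85 ± 0.19, limma adjusted p = 0.00129), and it was above PBS with NMN (0.91 ± 0.19, limma adjusted p = 0.00476) and NR (1.14 ± 0.19, limma adjusted p = 0.000428). The NMN libraries overlapped with PBS through NMN 4, and the NR libraries did not. The summed TPM of 11 macrophage and monocyte genes was 53.4 to 134 with PBS, 171 to 282 with cisplatin alone, 94.6 to 171 with NMN and 123 to 141 with NR. Of these genes 2 were called higher with cisplatin, Cd68 (mean 3.48 TPM with PBS and 104.8 with cisplatin) and Cd14 (1.83 and 37.65). Another 3, Csf1r, C1qc and Ptprc, were called lower, and 6 were not called. The part of these cells in the change of Ucp2 was not tested. Ucp2 spans 100493337 to 100502020 on chromosome 7 and shares 4.36% of its exonic bases with Dnajb13 on the other strand.

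Ucp3, known from skeletal muscle, lies 6904 bases from Ucp2 on the same strand. It was listed at 0, 0.08, 0.15 and 0 TPM with PBS, 1.91, 2.4, 1.64 and 2.18 with cisplatin, 0.55, 0, 0.16 and 0 with NMN, and 0.10, 0.58, 0.53 and 0.74 with NR. It passed the filter through the 4 cisplatin libraries alone, so that a difference was built into its selection, and its fitted change (1.52 ± 0.20, limma adjusted p = 3.33e-06) is given as a description. The TPM of 8 skeletal muscle genes summed to 0 to 2.63 with PBS and 1.79 to 8.95 with cisplatin, and Myh2 and Myh4 were listed at 0 in all libraries.

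Ucp1, the uncoupling protein of brown fat, was just inside the filter with 4 libraries of at least 1 TPM. It was listed at 0, 0.23, 0 and 0 TPM with PBS, 1.07, 0, 1.56 and 0.58 with cisplatin, 0, 0, 0.09 and 0 with NMN, and 0, 0.13, 1.57 and 1.23 with NR. Zeros stood in 8 of the 16 libraries, and the difference of cisplatin from PBS was not called (0.69 ± 0.31, limma adjusted p = 0.061). The 4 libraries that admitted it were cisplatin 1, cisplatin 3, NR 3 and NR 4 and none with PBS, so the fitted change is given as a description. The libraries with the most Ucp1 were those with the largest sum over 8 white adipocyte genes, of which all 7 that were tested were called higher with cisplatin. That sum was 401, 224, 411 and 235 TPM with cisplatin and 23.7, 112, 395 and 247 with NR, against 25.4 to 125 with PBS and 26.4 to 106 with NMN. The sum over 7 brown adipocyte genes was 25.4 to 81.5 TPM with cisplatin, 80.2 to 102 with PBS, 64 to 93.4 with NMN and 78.1 to 114 with NR, and Cox7a1 held most of it. Of the narrower brown fat markers, Cidea reached 8.19 TPM in cisplatin 3 and 4.13 in NR 3, and Cox8b reached 25.96 TPM in cisplatin 3. Elovl3 stayed at or below 0.42 TPM and Dio2 at or below 0.05 in all libraries. With cisplatin Cidea was called higher, Cox7a1 and Ppargc1a were called lower, and Cox8b and Prdm16 were not called. The part of fat tissue in the values of Ucp1 was not tested.

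**Figure D4:**
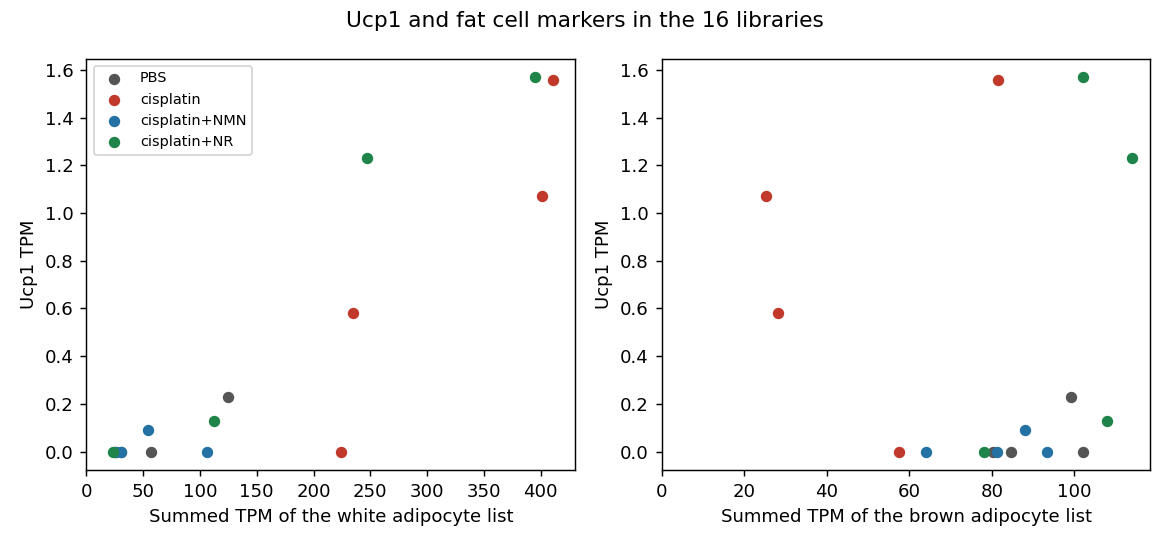
Ucp1 TPM in each of the 16 libraries against the summed TPM of the white adipocyte list (left, 8 genes) and of the brown adipocyte list (right, 7 genes). The 4 libraries above 1 TPM of Ucp1, cisplatin 1 and 3 and NR 3 and 4, had white adipocyte sums of 247 to 411 TPM.

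Slc25a30, the kidney mitochondrial carrier related to the uncoupling proteins, measured 20.2, 20.5, 23.2 and 20.5 TPM with PBS, 38.3, 37.6, 26.6 and 31.7 with cisplatin, 22.9, 26.1, 29.4 and 24.3 with NMN, and 28.2, 22.9, 27.6 and 32.1 with NR. It rose with cisplatin (0.63 ± 0.13, limma adjusted p = 0.000542), and every cisplatin library lay above every PBS library. The call of lower values with NMN (-0.36 ± 0.13, limma adjusted p = 0.0321) was lost in several alternative fits. Among them were median-of-ratios scaling (-0.12, adjusted p = 0.35) and the fit without cisplatin 1 (-0.30, adjusted p = 0.101). Slc25a14 and Slc25a27, both better known from the brain, stayed at means of 3.52 to 5.26 TPM and 0.848 to 1.08 TPM over the groups and were not called with cisplatin (0.35, adjusted p = 0.22, and -0.19, adjusted p = 0.513).

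Of the 7 tested carriers in no role group, 2 were lower with cisplatin, beside 18.6% of all genes, and none was higher. Slc25a35, whose substrate is not settled, fell from 8.31 ± 0.953 to 4.37 ± 1.02 TPM (-0.81 ± 0.18, limma adjusted p = 0.000753). It shares 31.3% of its exonic bases with Rangrf on the other strand, whose mean TPM was 17.4 with PBS and 32.7 with cisplatin. The part of that overlap in the value was not tested. Slc25a48 fell from 11.8 ± 2.46 to 8.35 ± 1.54 TPM (-0.45 ± 0.18, limma adjusted p = 0.0379) with groups that overlapped, and lost its call in 6 of the 8 fits that left out 1 PBS or cisplatin library, with an adjusted p of 0.133 without PBS 4. Slc25a45 measured 12.8, 17.1, 17.1 and 20.1 TPM with PBS, 26.8, 13.9, 11.5 and 14.4 with cisplatin, 13.1, 18.7, 19.9 and 15.8 with NMN, and 16.3, 13.4, 14.1 and 15.8 with NR. Cisplatin 1 stood above all other libraries and the groups overlapped (-0.06 ± 0.21, limma adjusted p = 0.808). Slc25a47, known from liver, measured 1.41, 2.91, 1.68 and 2.17 TPM with PBS, 3.28, 5.53, 1.42 and 2.76 with cisplatin, 1.51, 2.37, 2.6 and 1.43 with NMN, and 2.26, 4.31, 2.88 and 3.77 with NR. All groups overlapped and it was not called (0.42 ± 0.26, limma adjusted p = 0.181), and without cisplatin 3 it was (0.66, limma adjusted p = 0.0292). Slc25a34, Slc25a46 and Slc25a53 were called in none of the comparisons with all libraries on the TPM scale, and median-of-ratios scaling called Slc25a34 lower with cisplatin (-0.33). Slc25a53 was called higher with NR than with cisplatin after median-of-ratios scaling (0.94, limma adjusted p = 0.0487), without cisplatin 1 (1.13, 0.0217), without NR 2 (1.04, 0.0451) and without PBS 1, cisplatin 1 and cisplatin 3 (1.11, 0.044).

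The 6 members that were not tested stayed low. Slc25a43 reached 2.07 TPM in cisplatin 3, 1.16 in NR 1 and 1.04 in NMN 2 and lay below 1 TPM elsewhere. Slc25a2, a second ornithine carrier, was listed at 0.98, 0.99, 0.30 and 0.73 TPM with cisplatin and at most at 0.42 in the other libraries. Slc25a18, a second glutamate carrier, stayed at or below 0.41 TPM, and Slc25a31, the ADP/ATP carrier of testis, at or below 0.17. Slc25a41 was listed above 0 in 1 library, cisplatin 1, at 0.43 TPM.

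Members with related substrates were also set against each other. Among 10 pairs, each read as a log2 ratio of TPM + 1 within a library, 5 had ratios that did not overlap between cisplatin and PBS. Of all single genes tested, 50.8% did not overlap, and no share over pairs of other genes was computed. The ratio of Slc25a4 to Slc25a5 was -2.55 ± 0.04 with PBS and -1.83 ± 0.11 with cisplatin, and that of Slc25a33 to Slc25a36 was -1.55 ± 0.24 and -0.26 ± 0.18. Slc25a24 to Slc25a25 gave -4.66 ± 0.60 and -1.86 ± 0.27, and Slc25a22 to Slc25a18 gave 3.40 ± 0.30 and 4.60 ± 0.27. Slc25a18 is near 0, and with a pseudocount of 0.1 the difference was 0.55 in place of 1.21. Slc25a10 to Slc25a11 gave 1.28 ± 0.10 and 0.83 ± 0.22. These ratios were not tested. The mitoferrins Slc25a37 and Slc25a28 had a ratio of -1.98 ± 0.13 with PBS and -1.93 ± 0.15 with cisplatin, with ranges that overlapped. Overlap was also seen for Slc25a12 to Slc25a13, Slc25a39 to Slc25a40, Slc25a16 to Slc25a42 and Ucp2 to Ucp3.

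**Figure D5:**
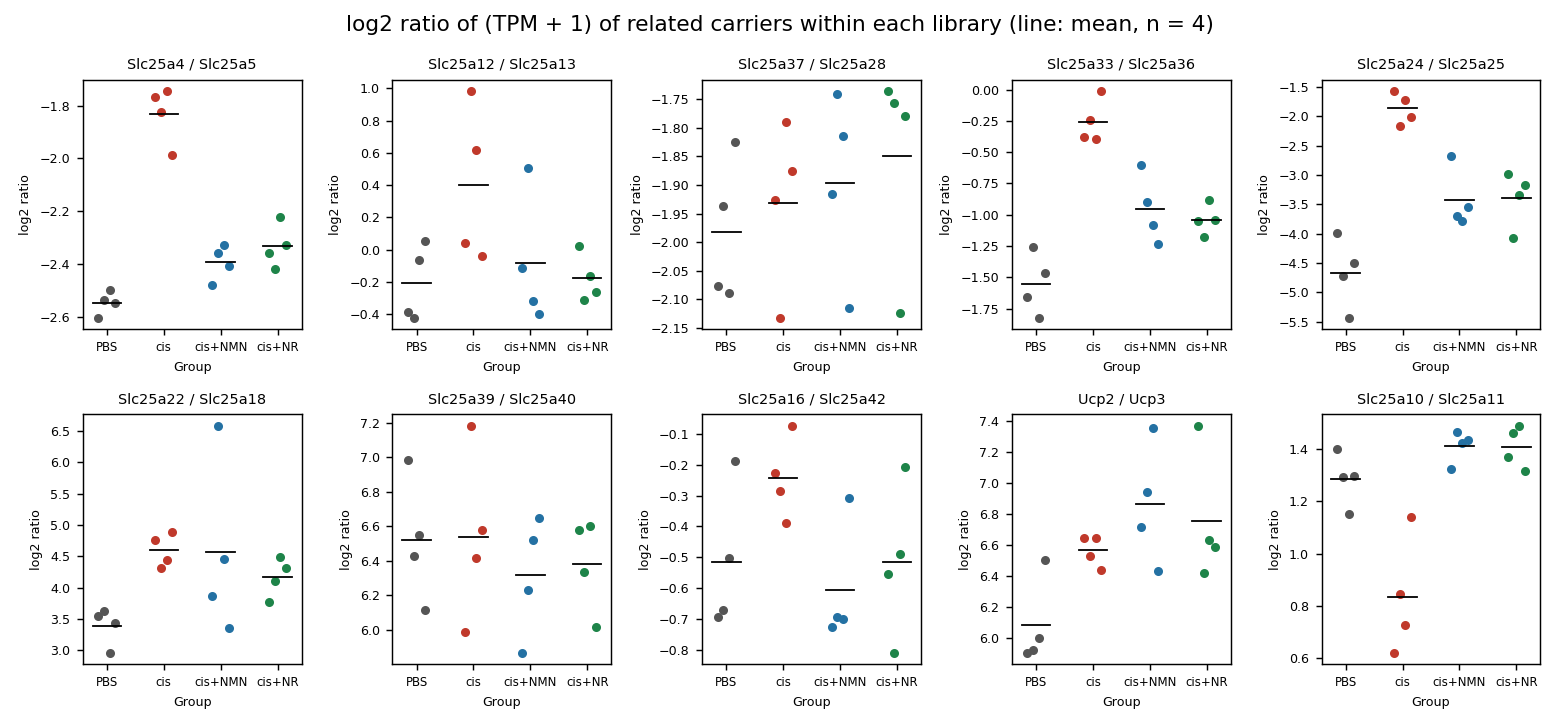
Log2 ratio of (TPM + 1) for 10 pairs of related carriers in each library, with the group mean as a line (n = 4) and a separate vertical axis for each pair. The cisplatin points lie above the PBS points for Slc25a4 to Slc25a5, Slc25a33 to Slc25a36, Slc25a24 to Slc25a25 and Slc25a22 to Slc25a18, and below them for Slc25a10 to Slc25a11.

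In the genome the members lay on 19 chromosomes, and 5 pairs were neighbours within 50000 bases. Slc25a29 and Slc25a47 lie 162 bases apart on opposite strands of chromosome 12, and neither was called with cisplatin. Slc25a41 and Slc25a23 lie 2056 bases apart on chromosome 17, where the first was listed at 0 in all libraries but cisplatin 1 and the second averaged 38.6 ± 3.11 TPM with PBS. On the X chromosome Slc25a43, not tested, lies 18448 bases from Slc25a5.

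A list of 28 genes held enzymes that make or use what the carriers move, and the carnitine transporter Slc22a5. Of these genes, 15 were lower and 4 higher with cisplatin, beside 18.6% and 40.7% of all genes, with a median of -0.39 beside 0.27. Gatm, which makes the creatine precursor guanidinoacetate, fell from 184.9 ± 20.1 to 14.98 ± 3.57 TPM (-3.56, limma adjusted p = 4.62e-12), and Shmt2, the mitochondrial serine hydroxymethyltransferase, from 141.1 ± 9.13 to 37.84 ± 3.21 TPM (-1.87, limma adjusted p = 1.52e-11). Arg2, the mitochondrial arginase whose product Slc25a15 carries, rose from 2.155 ± 0.863 to 127.4 ± 32.6 TPM (5.35, limma adjusted p = 3.83e-11). Mdh1, the cytosolic malate dehydrogenase of the shuttle, fell from 619.4 ± 40.1 to 202.4 ± 23.5 TPM (-1.61, limma adjusted p = 5.02e-10). Nnt, which couples NADPH to the proton gradient, was at 13.09 ± 7.04 TPM with PBS and 2.277 ± 2.56 with cisplatin (-2.37, limma adjusted p = 0.00161).

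Of 22 other transporters and channels of the mitochondrial membranes, 10 were lower and 5 higher, beside 18.6% and 40.7% of all genes. The pyruvate carrier subunits Mpc1 (575.7 ± 24.8 to 277.3 ± 46.3 TPM) and Mpc2 (388.5 ± 12.9 to 244.1 ± 24.2 TPM) fell, with limma adjusted p-values of 1.2e-07 and 8.92e-05. Tspo, an outer membrane protein, rose from 154 ± 12.1 to 404.2 ± 14.3 TPM (1.39, limma adjusted p = 1.08e-07). Of 16 ATP synthase genes, 9 were lower and 1 higher, beside the same shares, with a median of -0.34 beside 0.27. Atp5f1 fell from 378.4 ± 29.8 to 223.7 ± 8.3 TPM (-0.75, limma adjusted p = 1.15e-06) and Atp5a1 from 811.9 ± 101 to 452.6 ± 38.8 TPM (-0.84, limma adjusted p = 1.98e-06).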

How the data were processed

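The authors deposited 1 table of TPM values with 2 decimals for 16 libraries of total RNA. GRCm38 and the tools STAR 2.4.1d, Trim Galore, DESeq2 1.10.1 and HTSeq 0.6.1 are named in the submitters' processing notes, without their roles. Strand setting and annotation are not given there. TPM holds no counts, so log2(TPM + 1) was fitted with limma 3.58.1 (R 4.3.3; trend and robust, 4 group means, no covariate) over 12960 genes that reached 1 TPM in 4 or more libraries, with Benjamini-Hochberg adjustment over all of them and a threshold of 0.05. The code was tested on simulated data.

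Values in every library are given for the 12 most abundant members with PBS, the 8 largest called rises and falls with cisplatin whose higher group averaged at least 2 TPM, all members called against PBS, and 11 carriers picked by role. From the lists of partner enzymes (and Slc22a5), other membrane transporters and ATP synthase subunits, the genes with the smallest adjusted p are named. Mpc1, Mpc2 and Nnt are named too. Lists of cell type markers (proximal tubule, distal nephron, podocyte, macrophage, red blood cell, white and brown adipocyte, skeletal muscle) were summed per library. The members and lists were chosen with earlier results of these data known. Alternatives were another scaling, pseudocount and filter, other model settings, a replicate block, and libraries left out. Positions are from GENCODE on GRCm38. Protein sequences were not analysed here. 1 member enters the counts and is not reported here by name or in the figures.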

Additional observations from a re-analysis of the deposited data

Results flagged for a closer look

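In 15 of 176 groups of 4 libraries, 1 library stood apart from the other 3 by a Dixon test of its gap, where chance gives about 1 in 20 groups. For Slc25a22, NMN 2 held 104.49 TPM (others 11.96 to 21.88) and cisplatin 4 held 36.46 (26.06 to 27.13). For Slc25a12, cisplatin 2 held 37.19 TPM (14.09 to 17.63). For Slc25a5, PBS 1 held 760.02 TPM (931.96 to 950.57), and for Slc25a33 the same library held 7.12 (11.54 to 12.29). NMN 1 held 237.34 TPM of Slc25a10 (277.52 to 283.40) and 19.28 of Slc25a36 (27.07 to 28.60). Slc25a25 stood at 57.00 TPM in cisplatin 3 (69.65 to 72.08) and at 80.77 in NR 2 (55.49 to 59.39). Slc25a30 was at 23.18 TPM in PBS 3 (20.17 to 20.54), and Slc25a35 at 9.92 in NR 4 (6.32 to 6.52). Slc25a37 was at 16.32 TPM in cisplatin 2 (19.06 to 19.51), and Slc25a53 at 4.25 in cisplatin 1 (0.91 to 1.46). Ucp1 was listed at 0.23 TPM in PBS 2 and at 0.09 in NMN 3, with 0 in the other libraries of those groups.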

How the results depend on the processing

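Of 80 called changes of members, 61 stayed called under every alternative that tested the member, and 19 were lost in at least 1. The 61 include the calls of Ucp3, which at 2.4 TPM or less was not tested under the filter of 5 TPM. None changed sign. Counts of called members stayed within 1.5 times under the alternatives run, except against PBS: median-of-ratios scaling gave 5 with NMN and 8 with NR in place of 2 and 2, and the fit without PBS 1, cisplatin 1 and cisplatin 3 gave 4 with NR. Leaving out 1 library gave 26 to 30 for cisplatin against PBS, 22 to 25 for NMN and 20 to 22 for NR against cisplatin, 2 to 3 for NMN and 2 to 4 for NR against PBS, the 4 without PBS 1, and 0 between NMN and NR. With a replicate block the counts were 30, 24, 23, 2, 3 and 0 in the order cisplatin against PBS, NMN and NR against cisplatin, NMN and NR against PBS, and NMN against NR. Libraries of the same number correlated at -0.13 to 0.29, and no comparison had all 4 over 0.1. NMN and NR libraries each matched their own number best. The same held between NMN and PBS for numbers 1, 2 and 4, and between NR and PBS for 2 and 4. Between each precursor and cisplatin it held for numbers 3 and 4. The main fit did not take the numbers as pairs, and whether they mark a pairing was not tested. Without the mitochondrially encoded genes the family summed to 4983 (PBS), 3348 (cisplatin), 4627 (NMN) and 4505 (NR) TPM, and median-of-ratios scaling gave 2435 for cisplatin. With a pseudocount of 0.1 the change in log2 ratio was 3.70 for Slc25a24 to Slc25a25, 0.55 for Slc25a22 to Slc25a18 and -1.85 for Ucp2 to Ucp3, in place of 2.80, 1.21 and 0.48. Leaving out 1 library gave -0.19 to 0.21 for Slc25a39 to Slc25a40, with -0.01 without PBS 2, -0.11 without PBS 4 and -0.19 without cisplatin 2, in place of 0.02. The cause was not tested. TPM gives no depth, so the precision of low members rests on the spread of the 4 libraries alone.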
